A study of Mus musculus with 2 samples.

Results

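Among the hepatic stellate cells (HSCs) of 2 single-cell libraries, the cells with the highest expression of Galnt14, Egfem1, Hhip and Cdh18 are described here. A score was computed for each cell as the mean natural log of 1 plus the count per 10000 over the 4 genes, and the top 10% within each library were taken as members. There were 1492 members among 14929 stellate cells and 19955 barcodes, 809 of 8092 stellate cells in one library and 683 of 6837 in the other. The 4 genes chose the members, so their own levels are given as a description. The word "members" below means these cells, and "other cells" means the remaining stellate cells of the same library.

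Both libraries came from male mice on a C57BL/6 background that received CCl4 (carbon tetrachloride, which injures hepatocytes and leads to liver fibrosis) for 4 weeks, together with tamoxifen and diphtheria toxin. The p16-LRTD mice carried p16-CreERT2 together with the Rosa26 allele R26-CAG-LSL-RSR-tdTomato-2A-DTR, whose reporter and toxin receptor need both Cre and Dre, and served as the control. The p16-Alb-LRTD mice carried Alb-DreERT2 in addition, so that hepatocytes with high p16 expression gained the receptor and were eliminated by the toxin. The study also saw very mild fibrosis in zones 1 and 2 of the liver, only in mice with both Alb-DreERT2 and the Rosa26 allele. It speculates that the receptor leaked past the loxP-flanked stop. The part of such leakage in the differences below was not tested. The question behind the comparison was how the stellate cells of a fibrotic liver differ once those hepatocytes are gone. Cells were released by pronase and collagenase, enriched on a Nycodenz density gradient and run as 10x 3' libraries. There was 1 library per genotype, and how many mice went into each is not given in the sources used here. Differences between genotypes are therefore differences between 2 libraries, without a replicate check, and every interval below is a 95% interval that covers counting error only.

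HSCs lie in the space between hepatocytes and sinusoidal endothelium, store retinoids when quiescent, and turn into collagen-producing myofibroblasts on injury. Healthy liver holds stellate cells of different positions along the axis from portal to central vein, and injury-activated cells come mainly from the pericentral side in CCl4 models. The 4 score genes belong to unrelated families. Hhip encodes a membrane protein that binds hedgehog ligands and limits hedgehog signalling, Galnt14 an enzyme that adds the first sugar of mucin-type O-glycans, Cdh18 a type II classical cadherin of cell adhesion, and Egfem1 a little-studied protein with EGF-like and EMI domains.

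The annotated positions (GRCm38, strand as annotated) are chr17:73493228-73710453 on the minus strand for Galnt14, chr3:29082023-29691209 on the plus strand for Egfem1, chr8:79965851-80058006 on the minus strand for Hhip and chr15:22549022-23474418 on the plus strand for Cdh18. All 4 are protein-coding genes on different chromosomes. RefSeq promoters (GRCm38.p6, 250 bases before to 50 after a start, 5' to 3' on the strand of the gene) are shown for 3 of them. The 4 genes define the cells, and their levels went together weakly over cells. Egfem1 has 2 such windows, which are not shown.

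Galnt14, chr17:73710402-73710701, minus strand: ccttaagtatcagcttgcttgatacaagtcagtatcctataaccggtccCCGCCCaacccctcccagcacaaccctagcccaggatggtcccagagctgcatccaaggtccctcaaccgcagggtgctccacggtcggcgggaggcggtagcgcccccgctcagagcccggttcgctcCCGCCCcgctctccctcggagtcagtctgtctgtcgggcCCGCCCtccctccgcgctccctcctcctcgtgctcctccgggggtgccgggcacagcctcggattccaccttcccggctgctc

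Hhip, chr8:80057959-80058258, minus strand: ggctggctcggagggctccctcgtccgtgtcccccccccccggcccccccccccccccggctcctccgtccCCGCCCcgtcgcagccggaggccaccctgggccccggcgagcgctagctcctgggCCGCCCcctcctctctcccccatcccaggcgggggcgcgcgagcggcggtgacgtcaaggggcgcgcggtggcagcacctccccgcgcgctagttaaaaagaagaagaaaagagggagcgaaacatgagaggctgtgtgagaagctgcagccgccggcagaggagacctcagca

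Cdh18, chr15:23036213-23036512, plus strand: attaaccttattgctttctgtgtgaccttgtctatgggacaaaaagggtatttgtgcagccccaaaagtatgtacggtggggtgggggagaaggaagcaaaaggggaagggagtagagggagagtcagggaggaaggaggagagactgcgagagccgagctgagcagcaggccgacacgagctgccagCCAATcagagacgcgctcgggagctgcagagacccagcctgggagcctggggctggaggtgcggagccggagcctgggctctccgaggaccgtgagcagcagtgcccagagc

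Capitals mark GGGCGG (the GC box, on either strand) and CCAAT (on either strand), which do not overlap here. The Galnt14 window held 3 GC boxes and the Hhip window 2, a motif found in 35.7% of all 32851 RefSeq windows of this length. The Cdh18 window held 1 CCAAT, found in 37.4% of windows. TATAAA (13.6% of windows), CACGTG (7.15%) and the GLI motif GACCACCCA (0.253%) were not in these 3 windows. The G and C content was 67.3% for Galnt14, 73.7% for Hhip and 60.3% for Cdh18. Of the 2 Egfem1 windows, 1 held none of these motifs and the other held 2 GC boxes and 1 CCAAT.

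The p16-LRTD library held 193746596 UMIs (unique molecular identifiers, each standing for 1 captured transcript) and the p16-Alb-LRTD library 162219167. Members had a median of 18438 UMIs against 17024 in other cells of p16-LRTD, and 20293 against 18042.5 in p16-Alb-LRTD, so the members were slightly deeper. Their median mitochondrial share was 2.45% against 2.48%, and 2.04% against 2.16%. Levels are given as CPM, the summed UMIs of a gene scaled to a common total of the group (counts per 1000000). The libraries shared 95 barcodes, of which 5 were p16-LRTD members and 1 a p16-Alb-LRTD member. Cdkn2a, whose p16 promoter drives the Cre, stood at 4.08 CPM in p16-LRTD members and 4.06 CPM in p16-Alb-LRTD members, with overlapping intervals (3.13 to 5.23 and 3.08 to 5.24). The gene does not encode p16 alone, so these are not levels of p16 itself. The tdTomato reporter was at 2.17 and 5.59 CPM, from 33 and 80 UMIs.

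The score had no gap at the threshold. In p16-LRTD the last member scored 1.105 and the first cell outside 1.104, and in p16-Alb-LRTD the last member scored 0.989 and the first outside 0.988. The highest scores were 2.79 and 2.18. Among other cells, 18.1% in p16-LRTD and 15.4% in p16-Alb-LRTD had no UMI of any score gene. The members are thus the upper end of a continuous range rather than a separate mode.

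**Figure D1:**
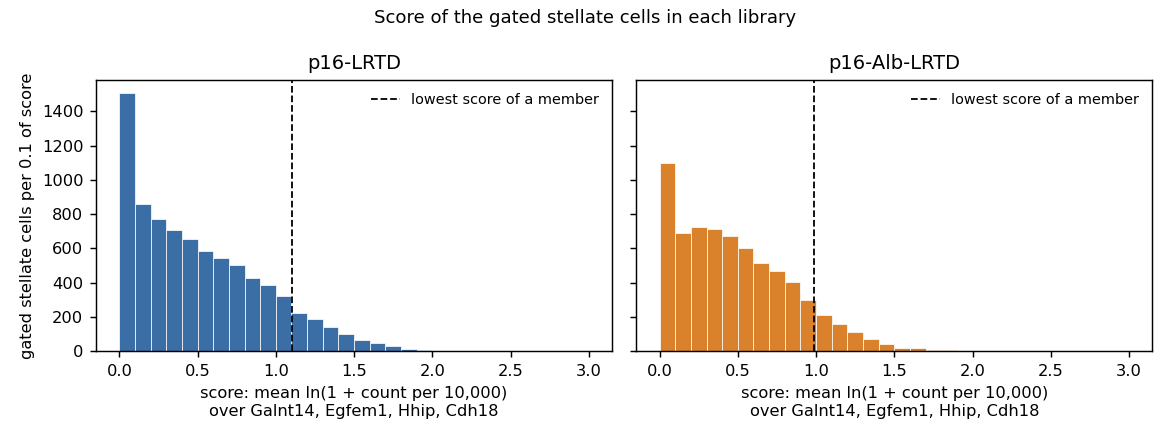
Number of stellate cells (y axis) per 0.1 of the 4-gene score (x axis) in p16-LRTD (left) and p16-Alb-LRTD (right), with the lowest score of a member as a dashed line. Counts fall without a gap through the thresholds of 1.105 and 0.989.

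Galnt14 stood at 157 CPM in p16-LRTD members against 25.6 in other cells, and at 183 against 39.6 in p16-Alb-LRTD. Egfem1 was at 791 against 153 CPM and 589 against 115 CPM. Hhip was at 379.6 against 83.9 and 381 against 117 CPM. Cdh18 was at 303 against 86.2 and 189 against 55.9 CPM. These ratios follow from the choice of cells. Most members carried all or nearly all of the 4 transcripts. All 4 were detected in 64.0% of p16-LRTD members and 55.2% of p16-Alb-LRTD members, against 7.25% and 5.61% of other cells. Galnt14 was the gene most often missing, with a UMI in 73.9% and 75.7% of members, whereas Egfem1 was detected in 98.4% and 93.7%. In barcodes marked as Kupffer cells the 4 genes stood between 0 and 1.86 CPM. In barcodes marked as endothelial cells (367 and 202, median depths of 12061 and 12317.5 UMIs), Galnt14, Hhip and Cdh18 stood at 1.14 CPM or less and Egfem1 at 28.9 and 7.79 CPM. Egfem1 stood at 1.74 and 1.24 CPM in the Kupffer-marked barcodes. The part of free RNA in these levels was not tested.

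Each score gene was also read in cells chosen on the other 3 genes, which its own level did not choose. In p16-LRTD, Galnt14 was then at 100.2 CPM in the chosen cells against 32.1 in the rest, a log2 ratio of 1.64 (1.56 to 1.73). The same ratio was 1.33 for Egfem1, 1.42 for Hhip and 1.13 for Cdh18. In p16-Alb-LRTD the ratios were 0.97 for Galnt14, 0.92 for Egfem1, 0.72 for Hhip and 0.96 for Cdh18. Each gene was higher in cells that the other 3 selected, in both libraries, and all 4 ratios were smaller in p16-Alb-LRTD. The 4 genes were chosen with earlier results of these data known, so these ratios are a description and no separate support. Correlations over single cells were weak, at 0.23 to 0.33 over 8092 cells and 0.15 to 0.19 over 6837 cells (Pearson, log-normalised, each pair sharing the depth of its cell). When cells were chosen on a random part of their UMIs, drawn with equal chance for each UMI, and read on the remainder, the log2 ratios were 2.37 and 1.95 for Galnt14, 2.17 and 2.13 for Egfem1, 1.95 and 1.41 for Hhip and 1.55 and 1.47 for Cdh18. Of the chosen cells, 60.9% and 58.3% were chosen on both parts. The rest of the chosen cells thus changed with the sampling of transcripts.

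Members lay near each other in expression space without forming a closed group. Over 30 principal components of variable genes that left out the score and gate genes, 33.0% of the 30 nearest neighbours of p16-LRTD members were members, against 7.64% for other cells, where 10.0% is the share of members in all. In p16-Alb-LRTD these shares were 24.5% and 8.82%. Members made up most of the neighbourhood for 156 of 809 members in p16-LRTD and 40 of 683 in p16-Alb-LRTD.

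Other scores of stellate cell states were computed on the same cells, taking the top 10% by each. Of the p16-LRTD members, 20.8% (18.0 to 23.7) were also in the top by Tgfbi, Fcna and G0s2, against 8.80% of other cells, and in p16-Alb-LRTD 16.3% against 9.29%. Members were rarely in the top by Alcam and Svep1, with 0.371% against 11.1% in p16-LRTD and 0.878% against 11.0% in p16-Alb-LRTD. For Notch3 and Clstn2, pericyte-type genes, the shares were 1.36% against 11.0% and 4.10% against 10.6%. For Grid1, Inmt and Sdk2 they were 4.20% against 10.6% and 7.61% against 10.3%. Only the Tgfbi Fcna G0s2 top held a larger share of members than of other cells among these 4 scores. Levels that set members apart from other cells were in part found in these tops as well. The Notch3 Clstn2 top had Piezo2, a mechanically gated channel, at 437 and 548 CPM, against 477 and 553 in members, and it had less Alcam than members (17.6 against 41.7 and 34.7 against 73.0 CPM). Its Col1a1 was below that of members in p16-LRTD (185 against 271 CPM) and above it in p16-Alb-LRTD (214 against 155 CPM). The Tgfbi Fcna G0s2 top had Rgs5 at 3845 and 2791 CPM, above the 3399 and 2661 CPM of members.

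**Figure D2:**
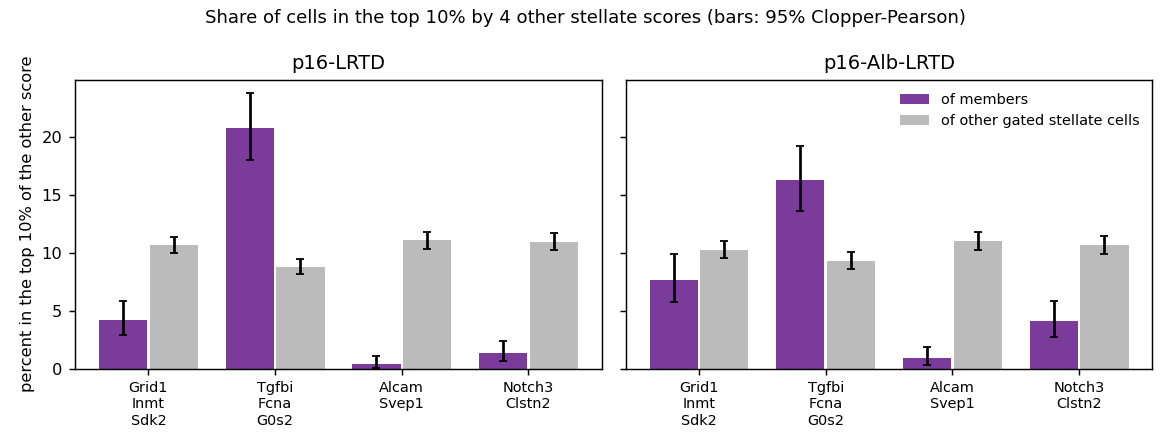
Percent of members (purple) and of other stellate cells (grey) in the top 10% by 4 other scores, per library, with 95% Clopper-Pearson intervals. The Tgfbi Fcna G0s2 bars are higher in members (20.8% and 16.3%), and the Alcam Svep1 bars are near 0.

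Members carried the genes of stellate cells. Of 16 genes of stellate identity, 12 were higher in members in both libraries and 3 lower, with median log2 ratios of 0.30 and 0.14. Without the Alcam Svep1 and Notch3 Clstn2 tops among the other cells these medians were 0.23 and 0.08. Over the 6500 genes measured, at 20 CPM or more in members or other cells of each library, 34.9% were higher in both and 42.2% lower, with medians of -0.01 and -0.02. Rgs5, a regulator of G-protein signalling found in pericytes and quiescent stellate cells, was at 3399 CPM against 2156 in p16-LRTD and 2661 against 1817 in p16-Alb-LRTD. Ank3, a membrane scaffold, stood at 6348 against 3732 and 6498 against 4945 CPM. Bmp10, a ligand that stellate cells pass to the endothelium, was at 170.1 against 103 and 193 against 155 CPM. Pdgfrb, the receptor for the mitogen PDGF, was lower in members, at 283 against 383 and 179 against 234 CPM. The gate genes are part of the rule. Hgf, the hepatocyte mitogen, was at 1382 against 909.7 and 1812 against 1228 CPM, and Lrat, which makes retinyl esters, at 1419 against 1276 and 1535 against 1483 CPM.

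Markers of endothelial, Kupffer, hepatocyte, mesothelial, portal fibroblast, lymphocyte and cholangiocyte origin summed to lower levels in members than in other cells, whereas those of vascular mural cells summed to higher ones. The 10 endothelial markers summed to 66.7 CPM in p16-LRTD members against 288 in other cells, and to 157 against 331 in p16-Alb-LRTD. The 10 Kupffer cell markers summed to 78.2 against 125 and 34.4 against 72.4 CPM, and the 10 hepatocyte markers to 87.0 against 96.2 and 84.5 against 100.3 CPM. The 8 mesothelial markers summed to 1.38 against 49.9 and 3.36 against 46.7 CPM, with 6 and 3 of them at 0 in members. Wt1 alone made up 1.18 against 47.5 and 2.94 against 46.3 CPM of these sums. It was the only 1 of the 8 that reached the level to be measured, so the sums describe little beyond Wt1. The 10 portal fibroblast markers summed to 37.0 against 154 and 52.6 against 116 CPM. The 10 lymphocyte markers summed to 4.54 and 4.20 CPM in members and the 7 cholangiocyte markers to 6.57 and 7.76 CPM. The 10 vascular mural markers summed to 1897 against 1560 CPM in p16-LRTD and 1649 against 1424 in p16-Alb-LRTD, of which Abcc9 alone made up 1394 against 982 and 1356 against 1107 CPM. The medians of the 6 measured mural genes were 0.10 and -0.06, and Notch3, at 5.79 against 44.8 and 2.66 against 14.6 CPM, was lower in members. The part of mural cells in the members was not tested. Proliferation genes were low as well, at 122 against 407 CPM over the list in p16-LRTD and 128 against 162 in p16-Alb-LRTD, of which 2 of 13 genes reached the level to be measured.

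No gene outside the rule was 2-fold or more higher in members in both libraries (0 of 6500, 0.0%), while 39 were 2-fold or more lower (0.6%). At a 1.5-fold threshold, chosen after the values were seen, 14 were higher (0.215%) and 86 lower (1.32%). More genes were thus lower than higher at either threshold. The count of 39 was 20 when cells in the tops by Alcam Svep1 and Notch3 Clstn2 were taken out of the other cells, and 25 when Galnt14 was left out of the score.

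The 15 genes with the largest ratios in the weaker library were higher in members of both. Nkain2, which encodes a partner of the sodium pump, was at 2676 CPM in members against 1204 in p16-LRTD (log2 1.15, 1.14 to 1.17) and 2164 against 1208 in p16-Alb-LRTD (log2 0.84, 0.82 to 0.86). Piezo2, a mechanically gated ion channel of touch and stretch, was at 477 against 243 and 553 against 302 CPM (log2 0.97 and 0.87). Fam19a2, a secreted chemokine-like protein of the nervous system, was at 357 against 194 and 124 against 74.0 CPM. Members were higher in both libraries for all 3, and Fam19a2 was also much lower in all p16-Alb-LRTD cells. Lrrn3, Cadps2 (a factor of dense-core vesicle release), Cacna1d (a subunit of L-type calcium channels) and Dcdc2a had log2 ratios of 0.96 and 0.71, 0.88 and 0.64, 0.90 and 0.58, and 0.90 and 0.59.

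Receptors, enzymes and a collagen chain were among the rest of the 15. Epor, the erythropoietin receptor, was at 59.8 against 28.2 CPM in p16-LRTD and 35.7 against 23.1 in p16-Alb-LRTD (log2 1.09 and 0.63). Abcb11, the bile salt export pump known from hepatocytes, was at 23.3 against 10.5 and 37.5 against 19.6 CPM (log2 1.14 and 0.94). The hepatocyte marker sums given above were not higher in members, and Abcb11 was at most 2.37 CPM in endothelial- and Kupffer-marked barcodes. Its level in hepatocyte-rich barcodes was not measured, and the part of hepatocyte RNA in it was not tested. Col24a1, a minor fibrillar collagen, was at 133 against 62.3 and 125 against 71.4 CPM, higher in members while the major fibrillar collagens were lower. Ptprt (an adhesive receptor phosphatase), Prkcq (protein kinase C theta), Adgrg6 (an adhesion receptor), Acer2 (a ceramidase) and Dach1 (a transcriptional cofactor) had log2 ratios from 0.59 to 0.97 in p16-LRTD and 0.57 to 0.85 in p16-Alb-LRTD.

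The 10 lowest genes included Wt1 and Dpt, which stand on the mesothelial and portal fibroblast lists. Wt1, a transcription factor of mesothelial cells, was at 1.18 CPM in members against 47.5 in p16-LRTD and 2.94 against 46.3 in p16-Alb-LRTD (log2 -5.33, -6.08 to -4.67, and -3.98, -4.45 to -3.54). Dpt, a matrix protein of fibroblasts, was at 3.68 against 65.3 and 3.01 against 31.5 CPM. Alcam, an adhesion molecule, was at 41.7 against 384 and 73.0 against 339 CPM. All 3 were lower in members of both libraries, and Alcam was still above the level to be measured there. Gas6, a ligand of the TAM receptors, had log2 ratios of -3.86 and -2.37, Svep1, a large adhesion protein of the matrix, -4.27 and -3.07, and Serpine2, a protease inhibitor, -3.75 and -1.99. Plat, the tissue plasminogen activator, had -3.03 and -2.12, Plxna4, a semaphorin co-receptor, -3.19 and -2.0, Gpr39, a zinc receptor, -3.10 and -2.42, and Gas7 -4.10 and -2.10. Against other cells without the tops by Alcam Svep1 and Notch3 Clstn2, the ratios were closer to 0 but still negative. Alcam went from -3.20 and -2.22 to -1.09 and -0.70, Svep1 to -1.51 and -0.80 and Wt1 to -3.03 and -1.76. In p16-Alb-LRTD, Wt1 was at -2.80 with members chosen on one part of the UMIs and read on the other. Gas6 in that library was at -3.50 without the 5% of cells highest in markers of other cell types.

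**Figure D3:**
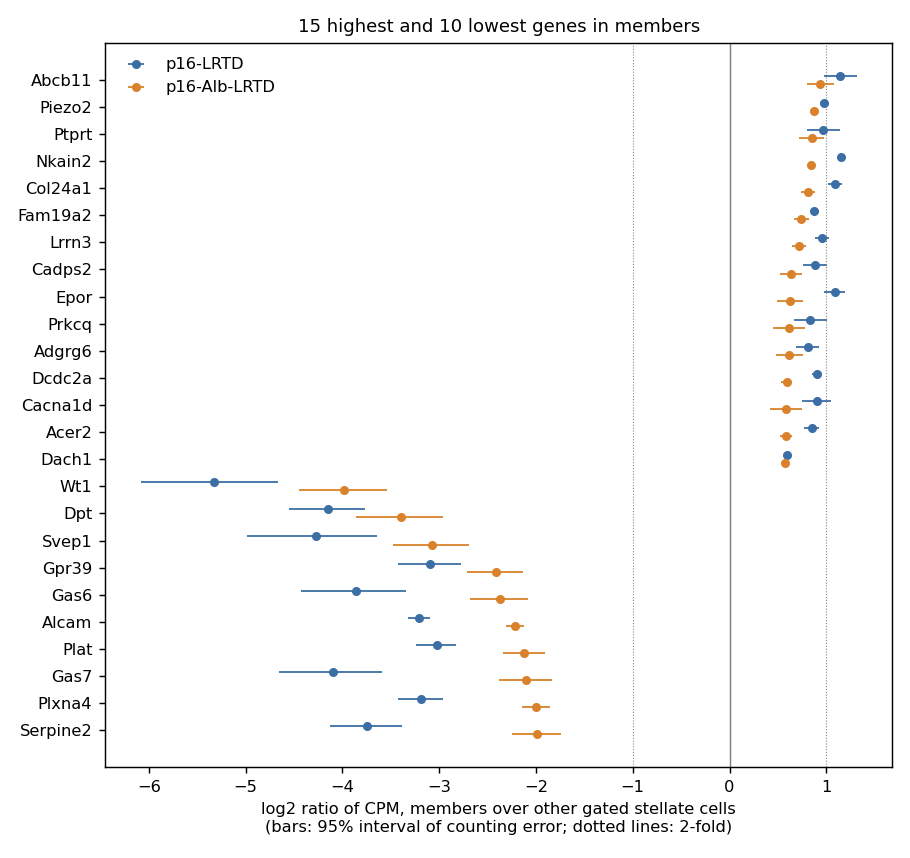
Log2 ratio of CPM in members over other stellate cells (x axis) for the 15 highest and 10 lowest genes (y axis), p16-LRTD in blue and p16-Alb-LRTD in orange, with 95% intervals of counting error. The higher genes lie between 0.57 and 1.15, the lower ones between -5.33 and -1.99.

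Genes of quiescent stellate cells were mixed in members. Of 10 such genes, 8 were measured, 3 higher in both libraries, 2 lower and 3 of mixed direction, with median log2 ratios of 0.11 and -0.06. Rgs5, Vipr1 (a receptor of vasoactive intestinal peptide) and Rxra were the higher ones, with Vipr1 at 1052 against 748 and 904 against 772 CPM. Cygb, cytoglobin, was lower, at 615 against 702 and 615 against 672 CPM, as was Spon2, which is also on the central vein list.

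Genes of stellate activation were mostly lower in members. Of 18 genes, 15 were measured, and 12 were lower in both libraries, none higher in both and 3 of mixed direction, with median log2 ratios of -0.96 and -0.47. With other cells weighted to the ribosomal share of members the medians were -0.61 and -0.34. Col1a1, the main chain of type I collagen, was at 271 CPM in members against 2092 in p16-LRTD (log2 -2.95, -2.99 to -2.90) and 155 against 526 in p16-Alb-LRTD (log2 -1.76, -1.82 to -1.70). Col3a1, of type III collagen, was at 1117 against 4322 and 799 against 1368 CPM. Timp1, an inhibitor of matrix proteases, was at 11.7 against 58.8 and 7.06 against 20.2 CPM. Postn, a matricellular protein, was nearly equal in p16-LRTD, at 389 against 390.4 CPM, and higher in p16-Alb-LRTD members, at 252 against 204 CPM. Col5a1 was of mixed direction as well, with log2 ratios of -0.10 and 0.05. Acta2, smooth muscle actin, stood at 3.94 and 0.42 CPM in members and was too low in p16-Alb-LRTD to be measured. Col1a1 was at 21.0 and 21.8 CPM in Kupffer- and endothelial-marked barcodes of p16-LRTD and at 5.17 and 2.71 CPM in those of p16-Alb-LRTD, well below its level in members.

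The levels changed gradually along the score, with cells ranked into groups of 10% and those without any score gene kept apart. The ninth group was therefore smaller, with 298 and 423 cells at median depths of 21922 and 19008 UMIs. In p16-LRTD, Col1a1 was at 271 CPM in members, 404 in the second group, 1157 in the fifth and 4358 in cells with a score of 0. In p16-Alb-LRTD it was at 155, 216, 356 and 1270 CPM in the same order. Alcam went along the same path from 41.7 to 1048 CPM and from 73.0 to 958 CPM. Nkain2 went from 2676 to 524 CPM and from 2164 to 534 CPM, and Rgs5 from 3399 to 1148 and from 2661 to 929 CPM. Cells with a score of 0 had median depths of 15540 and 16272 UMIs, against 18438 and 20293 in members.

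**Figure D4:**
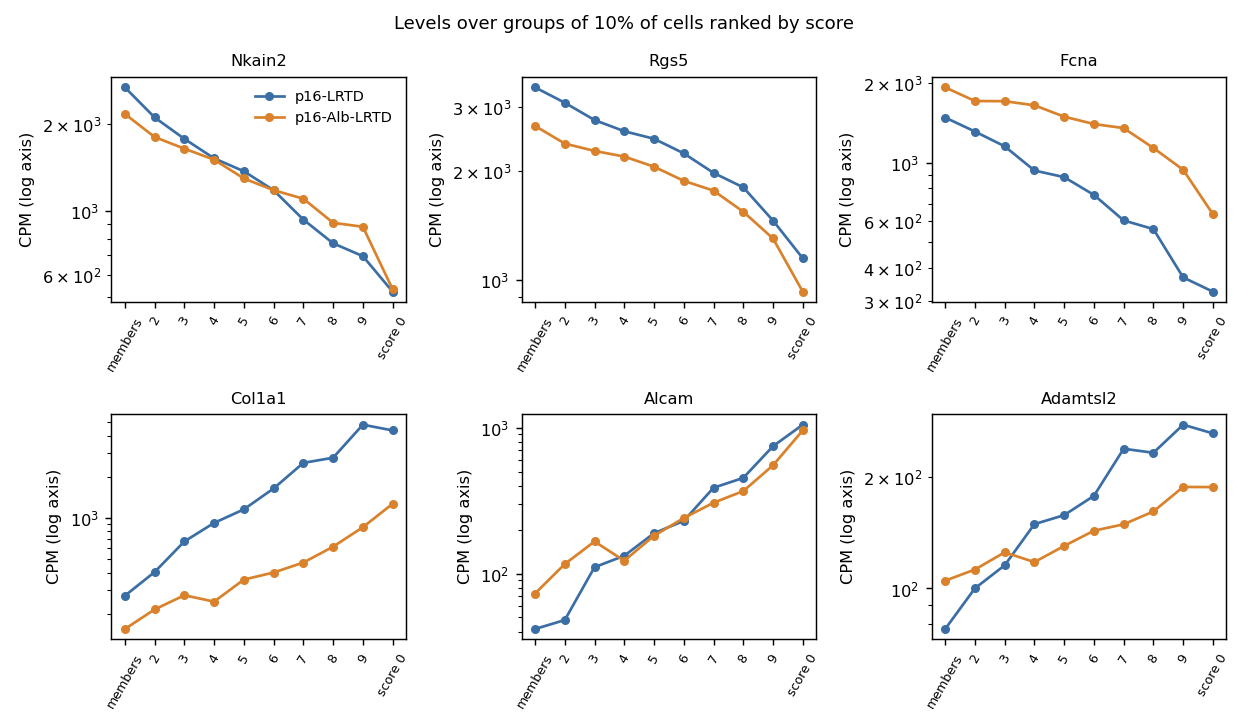
CPM on a log axis (y) over groups of 10% of cells ranked by score, from members to cells with a score of 0 (x) for 6 genes, p16-LRTD in blue and p16-Alb-LRTD in orange. Nkain2, Rgs5 and Fcna are lower and Col1a1, Alcam and Adamtsl2 higher towards a score of 0. The ninth group is smaller, with 298 and 423 cells.

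Markers of stellate position were split. Of 5 central vein genes, 4 were lower in members in both libraries and 1 higher, with medians of -1.28 and -0.55. These medians were -0.34 and -0.04 at a minimum of 50 CPM, which measures fewer of the genes, and -0.76 and -0.36 when the other cells were weighted to the ribosomal share of members. Adamtsl2, a regulator of matrix microfibrils, was at 77.7 against 188 and 105 against 145 CPM. Spon2 was at 26.6 against 64.9 and 13.4 against 33.7 CPM, and Loxl1, a collagen crosslinking oxidase, had log2 ratios of -2.29 and -1.95. Podn, a small proteoglycan, had -1.06 and -0.55. Rspo3, the R-spondin that sets pericentral Wnt signalling, went the other way, at 860.3 against 565 and 903 against 693 CPM. It carried most of the list's summed level, which was higher in members of both libraries, at 1055 against 948 CPM in p16-Alb-LRTD.

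Of 5 portal vein genes, 3 were higher in members in both libraries, 1 lower and 1 mixed, with medians of 0.14 and 0.07. Itgb3, an integrin subunit, was at 239.6 against 161 and 182 against 145 CPM. Il34, a ligand of the macrophage growth factor receptor, and Igfbp3 had log2 ratios of 0.23 and 0.23, and 0.14 and 0.07. Ngfr, the low-affinity neurotrophin receptor, was at 172 against 171 and 106 against 127 CPM. Tagln, an actin-binding protein that is also on the activation list, was lower, with log2 ratios of -1.75 and -1.18. The p16-LRTD median turned to -0.05 when the other cells were weighted to the ribosomal share of members.

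Relatives of the score genes went both ways. Of 19 other genes of the hedgehog pathway, 7 were measured, and 4 were higher and 3 lower in both libraries, with medians of 0.02 and 0.03. Ptch1, the hedgehog receptor and a target gene of the pathway, was at 70.4 against 65.3 and 53.6 against 51.4 CPM, and Gli3, a transcription factor of the pathway, at 116 against 111 and 110.5 against 104 CPM. Smo, the signal transducer, was at 25.2 against 34.1 and 27.4 against 34.1 CPM, and Gas1, a co-receptor, at 42.3 against 76.7 and 77.9 against 103 CPM. Disp1, which releases the ligands, had log2 ratios of 0.26 and 0.28, and Sufu and Spop lay between -0.05 and 0.03. The ligands Shh, Ihh and Dhh and the target Gli1 did not reach 20 CPM.

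Of 21 genes of O-glycan synthesis, 7 were measured, 3 higher and 2 lower in both libraries, with medians of 0.04 and 0.00. Galnt10 was the member with the largest ratio, 0.45 and 0.16, and Galnt1 stood at 256 against 271 and 233 against 241 CPM. Of 21 cadherins and catenins, 4 were measured, with medians of 0.02 and -0.01. Cdh2, N-cadherin, was at 836 against 826 and 587 against 564 CPM. Of 13 EMI domain and related genes, 5 were measured, 3 higher and 1 lower in both libraries, with medians of 0.07 and 0.19, and Tgfbi, a matrix adhesion protein, was at 1702 against 1245 and 1936 against 1692 CPM.

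Among other gene groups, synaptic adhesion genes had medians of 0.30 and 0.22, with 6 of 9 measured genes higher in both libraries and 2 lower. Cadm1, an adhesion molecule of the immunoglobulin superfamily, had log2 ratios of 0.58 and 0.45. Sdk2 and Grid1, which belong to another stellate state above, were lower, with -1.0 and -0.50, and -0.88 and -0.23. When other cells were weighted to the ribosomal share of members, these medians were -0.13 and 0.04. With no minimum level the p16-LRTD median was -0.14.

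Axon guidance genes were split, with 5 of 13 higher and 7 lower. Sema3d, a secreted semaphorin, had log2 ratios of 0.60 and 0.38 and Ntn1, netrin 1, 0.56 and 0.34, while Sema6a had -1.67 and -0.84. Of 10 contractile genes, none was higher in both libraries and 7 were lower, with Myl9, a myosin light chain, at 77.9 against 126 and 56.4 against 91.6 CPM. Of 6 measured genes of vascular mural cells, 2 were higher and 2 lower. The higher ones, Abcc9 (0.51 and 0.29) and Kcnj8 (0.50 and 0.48), encode subunits of the same potassium channel. Of 9 basement membrane genes, 4 were higher and 5 lower. Lama1, a laminin chain, was at 413 against 267 and 257 against 199.7 CPM, and Lama2 at 45.7 against 107 and 59.9 against 109.8 CPM. The 2 laminin chains thus went opposite ways in both libraries.

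Secreted signals were mixed. Of 18 genes of BMP and TGF-beta signalling, 7 were higher and 6 lower in both libraries. Bmp5 was at 1237 against 907 and 1027 against 817 CPM, and Tgfb2, a fibrogenic ligand, at 31.8 against 61.9 and 23.6 against 39.6 CPM. Angpt1, a ligand of the endothelial Tie2 receptor, had log2 ratios of 0.67 and 0.32, and Rxra, a retinoid receptor, 0.65 and 0.33. Of 12 Wnt and R-spondin genes, 4 were higher and 6 lower. Of 9 genes of the LIFR axis, 3 were higher and 3 lower, and Lifr itself was at 669 against 551 and 507 against 469 CPM. Fcna, a ficolin of the lectin pathway, was at 1485 against 769 and 1932 against 1342 CPM, and it stood at 656 and 794 CPM in Kupffer-marked barcodes, whose own markers were lower in members.

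Ribosomal content and gene length moved with membership. Ribosomal protein genes took a median of 8.69% of UMIs in p16-LRTD members against 10.0% in other cells, and 9.88% against 11.2% in p16-Alb-LRTD. The nuclear RNA Malat1 was at 19990 against 16880 and 21464 against 18465 CPM. Genes that span under 10 kb had median log2 ratios of -0.11 in both libraries, and those over 300 kb had 0.17 and 0.15. The score genes span from 92.2 kb for Hhip to 925 kb for Cdh18, the 15 named higher genes had a median span of 260 kb, and all tested genes one of 32.1 kb. With other cells weighted to the ribosomal share of members, the medians were -0.05 and -0.06 for genes under 10 kb and 0.06 and 0.07 for those over 300 kb. The 15 named genes then had log2 ratios from 0.33 to 1.12, and Col1a1 -2.38 and -1.46. The part of nuclear or unspliced RNA in these levels was not tested.

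The genotypes were compared in members next. At the p16-LRTD threshold, 433 of 6837 stellate cells in p16-Alb-LRTD reached the score, 6.33% (5.77 to 6.94) against 10.0% in p16-LRTD, which the rule fixes. With each cell thinned to 5000 UMIs, which left out 16 and 7 cells, these shares were 6.87% (6.28 to 7.49) and 10.0%. The median score over all stellate cells was 0.432 in p16-LRTD and 0.428 in p16-Alb-LRTD, and 0.275 in both on thinned cells. The shares come from the genes of the rule in 1 library each and are a description. Of the score genes, Cdh18 and Egfem1 were lower in p16-Alb-LRTD members, with log2 ratios of -0.68 and -0.43, and almost equally lower in other cells (-0.62 and -0.42). Galnt14 and Hhip were higher in p16-Alb-LRTD other cells (0.63 and 0.48) and differed less in members (0.22 and 0.01). These 4 ratios are a description, since the same genes chose the members within each library.

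Of 6710 genes measured in members, 83 were 2-fold or more higher in p16-Alb-LRTD (1.24%) and 25 lower (0.373%). In other cells, 69 of 6878 were higher (1.0%) and 46 lower (0.669%). The median over all genes was -0.05 in members and -0.04 in other cells. Zbtb16, a transcription factor induced by glucocorticoids, was at 67.9 CPM in p16-LRTD members and 722 in p16-Alb-LRTD members (log2 3.41), and nearly the same ratio was found in other cells (3.46). Angptl4, an inhibitor of lipoprotein lipase, was at 8.81 and 65.9 CPM (log2 2.90, against 1.64 in other cells). Cdkn1a, the cell cycle inhibitor p21, was at 8.81 and 38.5 CPM (log2 2.13, against 1.29). Ly6a had log2 ratios of 2.62 in members and 2.42 in other cells, Tmem100 2.11 and 1.70, and Serpina3g 2.22 and 1.88. Ifi208, an interferon-inducible gene, had 0 UMIs in p16-LRTD members and 25.2 CPM in p16-Alb-LRTD members, from 360 UMIs, a log2 ratio of 7.00 with the 0 set to a floor of 3 UMIs over the group and of at least 6.69 by its counting interval, and it was nearly absent from p16-LRTD other cells as well.

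Genes lower in p16-Alb-LRTD members were mostly lower in other cells by a like ratio. Lrrc4c, a synaptic adhesion protein, was at 632 and 267 CPM (log2 -1.24, against -1.05 in other cells). Heyl, a Notch target, was at 78.4 and 24.1 CPM (-1.71 against -1.55), and Clstn2 had -1.82 against -1.47. Fam19a2, one of the genes higher in members, had -1.53 against -1.39. Adgrl3, Fam84a, Nmnat2, Adam19 and Spata13 ranged from -1.78 to -1.44 in members and from -1.72 to -1.23 in other cells. Htra1, a secreted protease, was lower by more in members (-1.46 against -0.67, a difference of -0.79, -0.93 to -0.65).

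By group, glucocorticoid-responsive genes were higher in p16-Alb-LRTD members for 11 of 12 measured, with a median of 0.84 against 0.80 in other cells. Of all genes, 41.0% were higher and 59.0% lower in p16-Alb-LRTD members. Interferon genes were higher for 13 of 13, with a median of 0.85 against 1.04, and genes of dissociation stress for 12 of 13, with 0.70 against 0.56. Fkbp5, a glucocorticoid target, was at 78.6 and 292 CPM, and Cxcl10, an interferon-induced chemokine, at 62.7 and 149 CPM. The other groups given here had negative medians. Of 16 stellate identity genes, 11 were lower and 5 higher in p16-Alb-LRTD members, where 59.0% of all genes were lower. Their median was -0.19 against 0.03 in other cells. For 14 of 16 the ratio was below that of other cells with its counting interval, where this held for 16.1% of all genes. This is equally a smaller ratio of members to other cells in p16-Alb-LRTD than in p16-LRTD. Members of p16-Alb-LRTD were taken from a lower range of scores, whose part in it was not tested. Quiescence genes were lower for 7 of 8, with a median of -0.29 against -0.16, and Pth1r, the parathyroid hormone receptor, was at 504 and 318 CPM. Vascular mural genes were lower for 6 of 6, with -0.72 against -0.63. Stress genes respond to tissue digestion, and their part in the other differences was not tested.

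The genotype ratio of activation genes was higher in members than in other cells. Of 14 genes measured in members, 6 were higher and 8 lower in p16-Alb-LRTD, where 41.0% of all genes were higher and 59.0% lower, with a median of -0.18 against -0.60 in other cells. Col1a1 was lower in p16-Alb-LRTD, with log2 ratios of -0.81 (-0.88 to -0.73) in members and -1.99 (-2.0 to -1.98) in other cells, a difference of 1.19 (1.11 to 1.26). Col3a1 had -0.48 against -1.66, and Col1a2 -0.21 against -1.26. Tnc and Thbs2, matricellular proteins, had 0.78 and 0.83 in members, against -0.31 and 0.07 in other cells. Ctgf (Ccn2), a target of TGF-beta and YAP, was at 279 and 754 CPM in members (log2 1.43, against 1.08). The difference was above 0 with its counting interval for 14 of 14 genes, where this held for 13.2% of 6578 genes, and it was smallest for Fn1, fibronectin, at 0.05 (0.01 to 0.09). The median in members was -0.33 in place of -0.18 with the score on cells thinned to 5000 UMIs. Over the groups ranked by score, the Col1a1 ratio went from -0.81 in members and -0.91 in the second group to -2.48 in the ninth, and was -1.78 in cells with a score of 0. The path was uneven, with -1.91 in the fourth group, -1.70 in the fifth, -2.42 in the seventh and -2.16 in the eighth. A small genotype ratio of Col1a1 was not particular to members, since the Notch3 Clstn2 top had it at 185 and 214 CPM in the 2 libraries. Col1a1 was already low in p16-LRTD members, and members of p16-Alb-LRTD were taken from a lower range of scores, whose part in this difference was not tested.

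**Figure D5:**
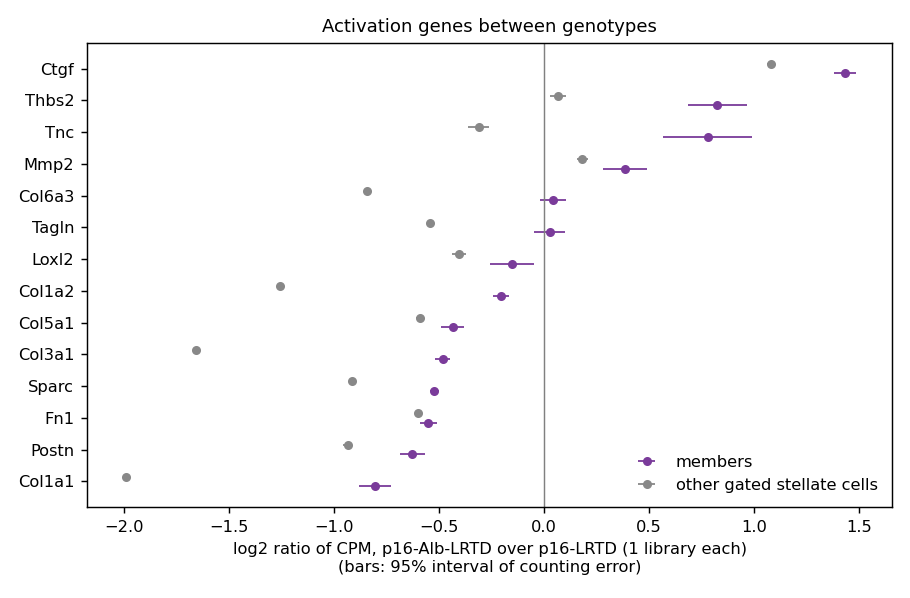
Log2 ratio of CPM, p16-Alb-LRTD over p16-LRTD (x axis), for the 14 measured activation genes (y axis) in members (purple) and other stellate cells (grey), with 95% intervals of counting error. All 14 purple points lie to the right of the grey ones, with Col1a1 at -0.81 against -1.99.

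The genotype ratio was higher by 2-fold or more in members than in other cells for 11 genes (0.167% of 6578). The 3 largest were endothelial genes. Kdr, a VEGF receptor, was at 5.46 and 22.0 CPM in members, Ptprb at 6.44 and 36.6 CPM and Stab2, a scavenger receptor, at 8.28 and 33.1 CPM. Without the 5% of cells highest in markers of other cell types, a list that holds these genes, Kdr stood at 1.04 and 0.96 CPM, Ptprb at 1.80 and 2.22 CPM and Stab2 at 1.46 and 1.55 CPM. Egr2, an immediate early factor, had a ratio of 1.82 in members against 0.48 in other cells, and Htra3, a secreted protease, 0.65 against -0.63. Ccl2, a chemokine that draws monocytes, was lower in p16-Alb-LRTD members and higher in p16-Alb-LRTD other cells, with -0.35 against 0.48 and a difference of -0.83 (-0.91 to -0.76). Rgcc had a difference of -0.83. The 1 gene past 2-fold in the opposite direction (0.0152%) was Ifi208, whose ratio in members is known only as a lower bound, so that no difference from other cells can be given for it.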

How the data were processed

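Single-cell RNA was measured in 1 library of stellate cells per genotype. The files deposited by the authors hold unnormalised UMI counts for every barcode, produced by Cell Ranger 7.0.1 on mm10 according to the submitters' processing notes. Whether intronic reads were counted is not given in the sources used here. The members and gene lists were chosen with earlier results of these data known.

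Barcodes were kept, after the study's limits, with a mitochondrial share of at most 5%, 2000 to 7000 genes and at most 50000 UMIs, which left 9004 and 7416. Stellate cells had at least 15 counts of Lrat, Ecm1, Hgf and Reln per 10000. No doublet caller was run here, so doublets were limited by the upper limits alone, with the removal of cells rich in other markers as an alternative. Endothelial- and Kupffer-marked barcodes had at least 20 counts of that list and at most 5 of the gate genes per 10000.

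Counts were summed over cells and scaled to CPM. Genes needed 20 CPM in members or other cells of each library, or in members of 1 library for genotypes. Ratios carry exact conditional binomial intervals, CPM exact Poisson intervals, shares Clopper-Pearson intervals, and differences of ratios a delta-method interval. A count of 0 was set to a floor of 3. Each gene's length is its annotated span, introns included. Neighbours used 2000 variable genes and 30 principal components. A single library stood for each genotype, which allows neither a test nor a p-value. Genes outside the lists are the 15 highest and 10 lowest by the weaker library's ratio, the 10 highest and 10 lowest genotype ratios and the 5 largest differences of those each way. The lists' 2 to 4 largest ratios were named, with every member allowed for the hedgehog, O-glycan, cadherin and position lists. Some genes that this rule names are not reported here. Other named list members, such as Pdgfrb, Ctgf and Lifr, were chosen after their values were seen. On simulated Poisson counts for 6500 genes, the intervals held the true ratio for 94.9% of genes between members and other cells and 94.7% between genotypes. The intervals assume such counts, and the simulation had no spread between cells or mice. It thus checks the computation only and cannot show how well the intervals hold on real cells. Python 3.11.15, numpy 2.4.6, scipy 1.17.1, pandas 2.3.3 and scikit-learn 1.9.0 were used.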

Additional observations from a re-analysis of the deposited data

Results flagged for a closer look

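For 12 genes named in the report, the score and gate genes aside, the genotype ratio had opposite signs in members and in other cells, each with a counting interval on 1 side of 0, as did 139 of the 6578 genes measured in both (2.11%). With 1 library per genotype the difference was not tested. The log2 ratio of p16-Alb-LRTD over p16-LRTD was above 0 in members and below 0 in other cells for Serpine2 (1.23 and -0.52), Alcam (0.81 and -0.18), Tnc (0.78 and -0.31), Htra3 (0.65 and -0.63) and Adamtsl2 (0.43 and -0.38). Serpine2 stood at 4.08 and 9.58 CPM in members, under the minimum of 20 CPM for genotype ratios. The ratio was below 0 in members and above 0 in other cells for Ccl2 (-0.35 and 0.48), Dcdc2a (-0.23 and 0.08), Cacna1d (-0.23 and 0.09), Vipr1 (-0.22 and 0.05), Sema3d (-0.19 and 0.03), Ntn1 (-0.0746 and 0.15) and Abcc9 (-0.0394 and 0.17). Cacna1d was under the minimum in other cells.

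With other cells weighted to the ribosomal share of members, the ratio in other cells was 0.02 for Alcam, -0.04 for Dcdc2a, -0.03 for Cacna1d and -0.06 for Vipr1, the same sign as in members. Without the Alcam Svep1 and Notch3 Clstn2 tops it was 0.42 for Alcam and -0.0008 for Vipr1. The other 8 genes had opposite signs in both settings.

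The tdTomato reporter, which no comparison used, was at 5.59 CPM in p16-Alb-LRTD members against 2.17 in p16-LRTD members (log2 1.37, from 80 and 33 UMIs). In other cells it was at 5.82 and 3.18 CPM.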

How the results depend on the processing

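No paired analysis was possible because a single library stood for each genotype, and no replicate could be left out. Over 24 alternative settings, 451 values of 22 results were recomputed. Of the 333 values that can change sign, 3 did so, all list medians of members over other cells in p16-LRTD. The portal vein median was -0.051 and the synaptic adhesion median -0.13 with other cells weighted to the ribosomal share of members, and the latter -0.14 with no minimum level. This weighting, the removal of the Alcam Svep1 and Notch3 Clstn2 tops, the 1.5-fold threshold and the removal of shared barcodes were chosen after seeing the data. Where no cause is named, it was not tested.

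Counts followed the minimum level, since it sets how many genes are measured. Genes 2-fold higher in members in both libraries numbered 0, and 1 at a minimum of 5 CPM, 200 with no minimum, 1 with the ribosomal weighting, 1 with the top 5% as members and 14 at 1.5-fold. Genes lower in members numbered 39, and 138 at 5 CPM, 11 at 50 CPM, 581 with no minimum, 86 at 1.5-fold, 20 without the 2 tops and 25 with the score without Galnt14. Genes higher in p16-Alb-LRTD members numbered 83, and 183, 48, 1316 and 246 at 5 CPM, 50 CPM, no minimum and 1.5-fold. Those lower numbered 25, and 73, 16, 788 and 122.

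The genotype ratio of Col1a1 in members (-0.81) was -0.94 in cells of 10000 to 30000 UMIs, -0.63 with members chosen on one part of the UMIs, -0.73 as a mean of per-cell CPM, -0.94 with the score on thinned cells, -0.70 without Egfem1, -0.90 without Galnt14, -0.71 without Hhip and -0.95 in the top 5%. The median ratio of a score gene in cells chosen on the others (1.38 and 0.94) was 1.21 and 0.84 on thinned cells, 1.45 and 1.01 in the top 5%, and 1.28 and 0.81 without Galnt14. In p16-LRTD it was 1.32 with members chosen on one part of the UMIs, 1.29 without Egfem1 and 1.15 without Hhip, and in p16-Alb-LRTD 0.81 without Cdh18. The share of neighbours that are members (33.0% and 24.5%) was 21.1% and 16.2% in the top 5%, 49.9% and 36.9% in the top 20%, where the share of members in all cells is itself 5% and 20% by construction, and 28.1% and 20.8% on thinned cells. It was 27.9% in p16-LRTD without Hhip and 21.2% in p16-Alb-LRTD without Galnt14. Of 282 list medians, 67 left the interval of their main value without changing sign.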
